A study of Mus musculus with 40 samples.

Results

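Dnmt3a-null long-term haematopoietic stem cells (LT-HSC) were set against Dnmt3a-null common and granulocyte-macrophage progenitors (CMP/GMP), both from mouse bone marrow. The members are the 8 libraries whose labels give the DNMT3A knockout genotype with either cell type, 4 of LT-HSC and 4 of CMP/GMP, out of 40 libraries in the series. The comparison asks how far the difference between stem cells and myeloid progenitors stands when Dnmt3a is lost, so the 4 LT-HSC and 4 CMP/GMP libraries of wild-type marrow were fitted with them. The model is given as Dnmt3af/f, Mx1-Cre, in which Cre recombinase is under the interferon-inducible Mx1 promoter and is therefore not limited to the blood lineages. The sources used here do not give the age of the mice, how Cre was induced, whether wild-type mice carried it, the sorting gates or any pooling of animals. Each library was made from bulk polyA RNA of sorted cells by a modified SMART-Seq2 amplification. Since the labels name no animals, all p-values measure the spread between these libraries, which may be technical.

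Long-term stem cells sit at the top of the blood hierarchy, divide rarely and hold the capacity for self-renewal. They are kept by a set of transcription factors, among them Hlf, Mecom, Meis1, Prdm16 and the HOX proteins, and by receptors for signals of the niche. Common myeloid and granulocyte-macrophage progenitors lie several divisions downstream, cycle actively, and begin to make the proteases of the neutrophil's primary granules under PU.1 and the C/EBP factors. Dnmt3a is a de novo DNA methyltransferase whose loss is known to favour self-renewal of stem cells over their differentiation.

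The difference between stem cells and progenitors was read in 14727 genes that passed the filter on low counts, of 35976 in the table. In the knockout, 684 genes were called at an adjusted p under 0.05 (4.64% of those tested), 372 higher in LT-HSC (2.53%) and 312 lower (2.12%). Of these, 369 rises (2.51%) and 237 falls (1.61%) also passed an absolute log2 fold change of 1. Counts of rises and falls in each gene list are to be read beside 2.53% and 2.12% of all genes. The knockout count was 424 without the library labelled LT-HSC knockout 3, 270, 315, 363 and 335 without CMP/GMP knockout library 1, 2, 3 and 4, and 1082 without LT-HSC wild-type library 1. The wild-type contrast called 1108 genes (7.52%), 620 higher (4.21%) and 488 lower (3.31%). CMP/GMP wild-type libraries 2 and 4 were near identical. With these summed into 1 library the wild-type count was 505 and the knockout count 460. The test of the difference between both contrasts called 0 genes, with 846 genes at an unadjusted p under 0.05. Values given per library are normalised CPM, read counts scaled to library size, in library order 1 to 4, fold changes are LT-HSC over CMP/GMP on the log2 scale with their standard error (SE), and group values are mean ± SD with n = 4. Adjusted p-values come from edgeR's quasi-likelihood test. Unless a count is given, a named call was kept in every alternative, which number 25 for most genes (9 other fits and 16 with 1 library left out) and 24 where a fit did not test the gene.

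The knockout LT-HSC libraries held 16.9 to 35.5 M gene reads and detected 12840 to 14404 genes, and the knockout CMP/GMP libraries held 33.3 to 45.6 M and detected 14215 to 14714. LT-HSC knockout library 2 and LT-HSC wild-type library 1 stood apart, with the lowest depth (16.9 and 20.1 M reads), the fewest genes and the most transposable element reads per 100 gene reads in their groups. Counts of called genes are therefore also given without 1 or both of them for the lists that moved most. In both knockout populations and in wild-type LT-HSC, libraries 1 and 2 carried Y-linked transcripts and libraries 3 and 4 carried Xist, so the sexes were balanced there. In wild-type CMP/GMP libraries 1, 2 and 4 carried Y-linked transcripts and only library 3 carried Xist, so the sexes were not balanced. With a term for sex in the fit 717 genes were called in the knockout contrast. The spread was wider in stem cells: the median SD of log2 values within the group was 0.78 in knockout LT-HSC and 0.41 in knockout CMP/GMP. On simulated counts of this design 35.1% of genes changed by a log2 of 2 and 1.05% of those changed by a log2 of 1 were recovered, so modest differences were mostly not detectable.

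Dnmt3a itself (chr12:3801559-3914443, GRCm38), which overlaps the antisense gene Dnmt3aos, was at 40.6, 70.9, 109 and 46.9 CPM in knockout LT-HSC and 17.6, 17.4, 34.0 and 35.2 CPM in knockout CMP/GMP. In wild-type cells it was at 228, 73.1, 103 and 94.7 CPM in LT-HSC and 67.2 ± 14.5 CPM in CMP/GMP. The library labelled LT-HSC DNMT3A knockout 3 thus lay above 3 of the 4 wild-type LT-HSC libraries, and transcript remained in every knockout library. The sources used here do not say which exons the allele removes, so reads over the whole gene check the label only in part. The LT-HSC over CMP/GMP difference was 1.36 (SE 0.403, adjusted p = 0.0609) and was not called. Tmem173 (chr18:35733678-35740554), the gene of Sting, the adaptor of cytosolic DNA sensing that the series also studies, was at 60.2 ± 34.1 CPM in LT-HSC and 129 ± 22 CPM in CMP/GMP (log2 -1.10, SE 0.461, adjusted p = 0.162).

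The 4 markers named for these cells separated the populations in every library. Hlf (chr11:90336535-90390917), a PAR bZIP transcription factor of stem cells, was at 157, 424, 256 and 133 CPM in LT-HSC and 25.8, 23.8, 17.6 and 12.8 CPM in CMP/GMP (log2 3.6, SE 0.436, adjusted p = 0.000309). Mecom (chr3:29951296-30509759), the zinc finger factor Evi1, was at 76.3, 212, 152 and 111 CPM against 7.05, 18, 14.5 and 5.70 CPM (log2 3.6, SE 0.448, adjusted p = 0.000309). The lowest stem cell library lay above the highest progenitor library for both genes. Mpo (chr11:87793784-87804412), the peroxidase of primary granules, ran the other way, at 12.3, 174, 41.2 and 77.3 CPM in LT-HSC and 12390, 7239, 16320 and 15190 CPM in CMP/GMP (log2 -7.39, SE 1.84, adjusted p = 0.0302). Its call was kept in 19 of 25 alternatives and lost without the libraries labelled LT-HSC knockout 1, 3 or 4 or CMP/GMP knockout library 1, 3 or 4, at adjusted p-values of 0.0523 to 0.0789. Elane (chr10:79886312-79888216), the gene of neutrophil elastase, was at 1.04, 46.1, 1.14 and 3.15 CPM in LT-HSC and 2278, 288, 2517 and 3464 CPM in CMP/GMP (log2 -7.39, SE 2.41). Elane was not called (adjusted p = 0.0836), although its groups did not overlap, and it passed the threshold in 5 of 25 alternatives. Mecom overlaps the antisense gene Mecomos and the counting is not stated to use strand, so their reads cannot be told apart.

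**Figure D1:**
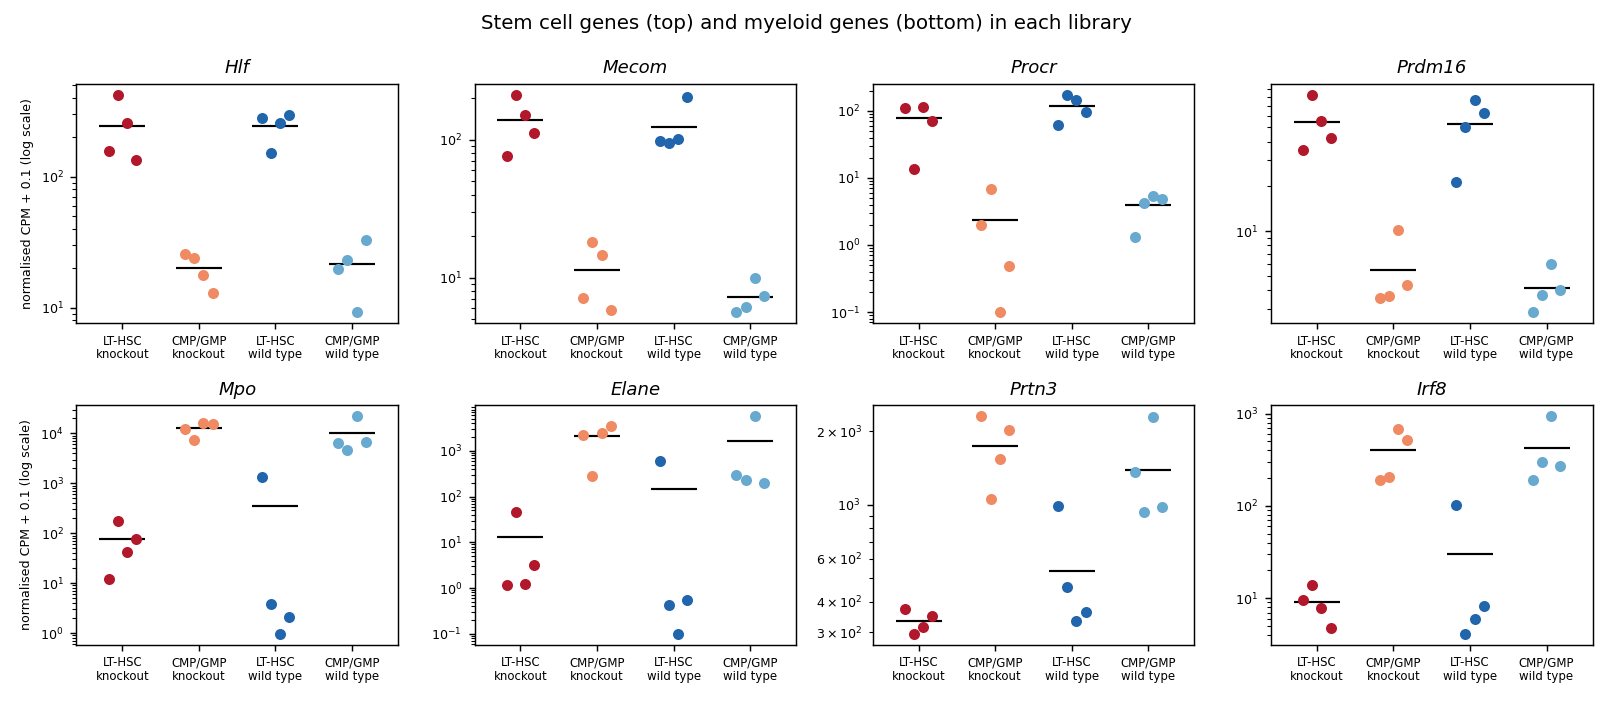
Normalised CPM of marker genes in each library, on a log axis after adding 0.1 CPM, for LT-HSC and CMP/GMP of knockout and wild type; points are libraries and lines are group means. Hlf and Mecom lie higher in every LT-HSC library, and Mpo, Elane and Irf8 lower in every LT-HSC library of the knockout, while wild-type LT-HSC library 1 lies far above the other 3 for them.

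The stretches before the start of the granule genes and of the stem cell markers Hlf and Mecom are printed from RefSeq (GRCm38.p6), since the results turn on these genes. Each is the 250 bases upstream of the annotated start, 5′ to 3′ on the gene's own strand, and capitals mark GAGGAAG, the core that PU.1 binds, on either strand. Mpo lies on the plus strand (chr11:87793534-87793783), as do Elane (chr10:79886062-79886311) and Prtn3 (chr10:79879417-79879666). Ctsg (chr14:56102575-56102824), Hlf (chr11:90390918-90391167) and Mecom (chr3:30509760-30510009) lie on the minus strand.
Mpo: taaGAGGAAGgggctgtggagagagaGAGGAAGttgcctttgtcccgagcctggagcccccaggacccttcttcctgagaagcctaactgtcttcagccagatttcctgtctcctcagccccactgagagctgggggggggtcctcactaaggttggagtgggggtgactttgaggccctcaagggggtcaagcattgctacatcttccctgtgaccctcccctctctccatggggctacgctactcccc
Elane: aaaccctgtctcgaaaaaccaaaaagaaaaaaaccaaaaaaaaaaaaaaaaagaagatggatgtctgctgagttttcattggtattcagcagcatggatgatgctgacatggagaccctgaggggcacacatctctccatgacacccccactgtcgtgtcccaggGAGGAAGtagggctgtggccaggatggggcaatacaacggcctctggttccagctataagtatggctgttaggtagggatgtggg
Prtn3: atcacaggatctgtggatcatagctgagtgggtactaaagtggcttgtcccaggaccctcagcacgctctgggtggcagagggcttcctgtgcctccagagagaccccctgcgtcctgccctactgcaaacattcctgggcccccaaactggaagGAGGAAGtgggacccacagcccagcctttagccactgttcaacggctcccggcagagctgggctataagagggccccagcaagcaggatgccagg
Ctsg: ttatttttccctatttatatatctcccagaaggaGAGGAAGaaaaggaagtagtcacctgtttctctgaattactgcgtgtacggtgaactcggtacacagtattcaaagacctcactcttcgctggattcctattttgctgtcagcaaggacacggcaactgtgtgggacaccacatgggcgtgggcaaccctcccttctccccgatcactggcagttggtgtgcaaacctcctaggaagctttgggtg
Hlf: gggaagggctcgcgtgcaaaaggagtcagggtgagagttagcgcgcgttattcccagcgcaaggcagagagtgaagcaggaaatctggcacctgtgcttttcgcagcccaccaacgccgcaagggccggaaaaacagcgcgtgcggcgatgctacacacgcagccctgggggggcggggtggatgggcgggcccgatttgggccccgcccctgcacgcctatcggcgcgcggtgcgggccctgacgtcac
Mecom: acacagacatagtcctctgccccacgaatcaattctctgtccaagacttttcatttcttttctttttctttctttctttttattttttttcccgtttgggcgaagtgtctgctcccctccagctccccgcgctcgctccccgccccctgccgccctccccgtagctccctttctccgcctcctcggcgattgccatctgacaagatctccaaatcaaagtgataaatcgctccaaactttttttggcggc
The letters occur 2 times before Mpo, 1 time each before Elane, Prtn3 and Ctsg, and 0 times before Hlf and Mecom. The 4 granule windows printed are the 4 of 12 that hold them. The granule gene windows hold few CpG pairs, the site that Dnmt3a methylates: 2 in Mpo, 3 in Elane, 4 in Prtn3 and 7 in Ctsg, beside 26 in Hlf and 14 in Mecom. The median over the 12 primary granule genes with a RefSeq window was 3.5 CpG pairs, over 24 stem cell factors 13.5, and over the 10748 tested genes with a window 15. GAGGAAG on either strand was in 33.3% of the granule windows, 8.33% of the stem cell factor windows and 10.9% of all windows. It was in 12.3% of the 276 matched genes higher in LT-HSC and in 16.9% of the 243 matched genes lower. TTGCNNAA, the C/EBP letters, was in 0% of the granule windows and 7.47% of all, and TGTGGT, the RUNX letters, in 33.3% and 11.1%. These are matches of letters in a window and no measure of binding or methylation, neither of which was measured here.

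Many transcription factors of stem cells were higher in LT-HSC. Of 32 listed genes 31 were tested, 17 were higher in knockout LT-HSC, 0 were lower and 14 did not pass, against 2.53% of all genes called higher. Their median log2 fold change was 2.0, beside 0.13 over all genes tested, and 2.18 for the same genes in the wild type. For 22 of the 31 the LT-HSC libraries all lay above the CMP/GMP libraries, which held for 6.72% of all genes. Without LT-HSC knockout library 2 the count of rises was 14. In bulk libraries a larger share of expressing cells and more RNA per cell cannot be told apart, here and in all that follows.

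Nkx2-3 (chr19:43612325-43615892), a homeobox factor, was at 37.6, 80.2, 7.18 and 27.8 CPM in LT-HSC and at 0.575, 0.229, 0 and 0 CPM in CMP/GMP (log2 7.57, SE 1.38, adjusted p = 0.00676). Hoxb5 (chr11:96303512-96306121), a HOX factor used as a reporter of long-term stem cells, was at 21.5, 20.6, 7.69 and 18.7 CPM against 0.0638, 0.572, 0 and 0.633 CPM (log2 5.74, SE 1.39, adjusted p = 0.0262, kept in 22 of 25 alternatives). Both genes were thus near absent from progenitors, and all 4 stem cell libraries carried them. Hoxb5 overlaps its antisense gene Hoxb5os. Hoxa5 (chr6:52201754-52204587) stood at 7.11, 98.2, 4.67 and 19.3 CPM in LT-HSC and 1.06 ± 0.725 CPM in CMP/GMP, with library 2 far above the rest (log2 4.92, SE 1.30, adjusted p = 0.0394, kept in 14 of 25 alternatives).

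Of the other regulators, chosen after their values were seen, Prdm16, a histone methyltransferase needed for stem cell maintenance, was at 34.9, 83.2, 55.2 and 42.5 CPM in LT-HSC and 3.45, 3.55, 10.1 and 4.24 CPM in CMP/GMP (log2 3.34, SE 0.526, adjusted p = 0.00159). Meis1, the TALE homeobox partner of HOX proteins, was at 464, 368, 416 and 460 CPM against 111, 213, 160 and 83.2 CPM (log2 1.59, SE 0.320, adjusted p = 0.00871). The stem cell libraries were even for Meis1 and none reached down to the progenitors. Lmo2, a bridging factor of the haematopoietic transcription complexes, was at 1271, 685, 1033 and 949 CPM against 276, 195, 157 and 418 CPM (log2 1.91, SE 0.339, adjusted p = 0.00358). Msi2, an RNA-binding protein of stem cells, was at 57.4, 356, 100 and 88.7 CPM against 24.8, 26.2, 19.4 and 27.1 CPM, highest in library 2 (log2 2.63, SE 0.564, adjusted p = 0.0133).

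Of 23 listed HOX and partner genes, 17 were tested, 5 were higher in LT-HSC (among them Hoxb5, Hoxa5, Hoxa10 and Meis1) and 0 were lower. Their median was 2.23, and 3.07 in the wild type, and 3 were called without LT-HSC knockout library 2. Hoxa10 (chr6:52231197-52240854) was at 47.2, 25.4, 40.5 and 19 CPM in LT-HSC and 1.5, 2.49, 6.92 and 5.67 CPM in CMP/GMP (log2 2.99, SE 0.584, adjusted p = 0.00710). Of the imprinted genes, expressed from the allele of 1 parent and known to be abundant in resting stem cells, 6 of 21 tested were higher and 0 lower, with a median of 2.23 (2.82 in the wild type), and 4 were higher without LT-HSC knockout library 2. Beside the HOX and imprinted counts, 2.53% of all genes were called higher. Meg3 (chr12:109540996-109571729), a maternally expressed long noncoding RNA that overlaps Rtl1 and several miRNAs, was at 46.2, 127, 36.1 and 19.6 CPM in LT-HSC and 0.128, 0.200, 0.956 and 0 CPM in CMP/GMP (log2 7.42, SE 1.38, adjusted p = 0.00752). Ndn (chr7:62348277-62349928), the gene of necdin, a growth suppressor that also stands in the stem cell factor list, was at 68.3, 36.8, 85.4 and 95.5 CPM against 1.98, 0, 4.14 and 5.83 CPM (log2 4.58, SE 1.21, adjusted p = 0.0395, kept in 16 of 25 alternatives). Grb10, an adaptor that restrains growth factor signalling, chosen after its values were seen, was at 110 ± 43.0 CPM against 15.7 ± 10.4 CPM (log2 2.81, SE 0.548, adjusted p = 0.00709). Igf2r (log2 5.27, SE 1.42, adjusted p = 0.0426), which overlaps Airn, and Sgce (log2 4.01, SE 1.11, adjusted p = 0.0467) were called with less support, in 9 and 8 of 25 alternatives.

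**Figure D2:**
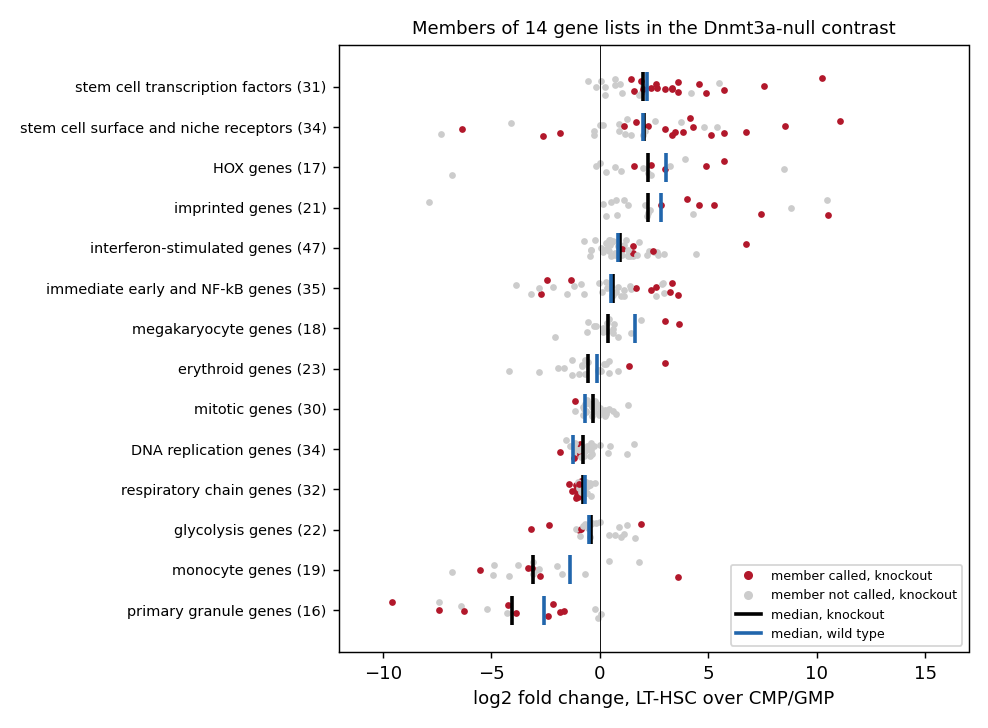
Log2 fold change, LT-HSC over CMP/GMP in the knockout, of each tested member of 14 gene lists (number tested in brackets), with called members in red and the list's median as a black bar for the knockout and a blue bar for the wild type. Stem cell factors, surface receptors, HOX and imprinted genes lie to the right, and respiratory, monocyte and primary granule genes to the left. Members with 0 reads in a population are drawn at their fitted value, which is not a bound.

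Surface and niche receptors divided as stem cell and progenitor antigens do. Of 34 tested of 39 listed, 14 were higher in LT-HSC and 3 were lower, with a median of 2.04 (2.01 in the wild type), and 21 were higher without LT-HSC wild-type library 1. With the 8 knockout libraries alone 9 were higher, and under the replicate block 11. Many of these proteins are used to sort the populations. Since the gates are unknown here, for these genes a difference set by the sort cannot be told apart from any other. Sult1a1 (chr7:126672865-126690443), a sulfotransferase found in stem cell signatures, was at 183, 210, 238 and 68 CPM in LT-HSC and 1.95, 0, 3.29 and 1.27 CPM in CMP/GMP (log2 6.74, SE 1.19, adjusted p = 0.00354). Fgd5 (chr6:91978827-92076005), a guanine nucleotide exchange factor used as a stem cell reporter, was at 10.3, 83.0, 17.6 and 16.3 CPM against 0, 0.172, 0 and 0.158 CPM (log2 8.56, SE 1.58, adjusted p = 0.00494). Clec1a (chr6:129426684-129452000), a C-type lectin whose locus overlaps Clec12b, was at 49.8 ± 15.3 CPM against 0.925 ± 0.892 CPM (log2 5.74, SE 0.964, adjusted p = 0.00255). None of these 3 genes overlapped between the populations.

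The classical antigens Procr (EPCR), Ly6a (Sca-1), Slamf1 (CD150) and Kit were added after their values were seen. Procr was at 112, 13.5, 113 and 71.6 CPM in LT-HSC, lowest in library 2, and 2.23 ± 3.05 CPM in CMP/GMP (log2 5.12, SE 1.09, adjusted p = 0.0130, kept in 23 of 25 alternatives). Ly6a, which has near-identical neighbours and is uncertain for that reason, was at 113 ± 40.9 CPM against 6.28 ± 4.38 CPM (log2 4.17, SE 1.01, adjusted p = 0.0268, kept in 19 of 25). Slamf1 was at 60.4 ± 20.4 CPM against 12.9 ± 11.2 CPM (log2 2.22, SE 0.598, adjusted p = 0.0419, kept in 11 of 25). Kit, the stem cell factor receptor carried by all these cells, was at 532 ± 124 CPM and 285 ± 42.1 CPM and was not called (log2 0.90, SE 0.312, adjusted p = 0.101).

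The 3 antigens that were lower in LT-HSC mark progenitors. Cd48 (chr1:171681245-171705258), a SLAM family receptor, was at 1.35, 4.22, 8.33 and 0.312 CPM in LT-HSC and 386, 297, 202 and 261 CPM in CMP/GMP (log2 -6.34, SE 1.24, adjusted p = 0.00722). Flt3 (chr5:147330741-147400489), a receptor tyrosine kinase of multipotent and lymphoid-primed progenitors, was at 19.8 ± 8.59 CPM against 120 ± 31.8 CPM (log2 -2.59, SE 0.576, adjusted p = 0.0166). Cd34 (chr1:194938821-194961292), a sialomucin low on mouse LT-HSC, was at 195, 176, 219 and 146 CPM against 687, 651, 703 and 554 CPM (log2 -1.82, SE 0.216, adjusted p = 0.000309). The libraries of each population were close together for Cd34, and the wild-type difference was -1.83.

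Some cell cycle restraint genes were higher in stem cells, while most did not pass. Of 19 quiescence genes and cyclin-dependent kinase inhibitors 3 were higher, Klf2, Txnip and Cdkn1c (kept in 16 of 25 alternatives), and 0 were lower. That is 15.8%, against 2.53% of all genes called higher, and 2 were higher without LT-HSC knockout library 2. Their median was 0.59, beside 0.13 over all genes and 0.53 for the list in the wild type. Txnip (chr3:96557957-96561857), the thioredoxin-interacting protein, was at 712, 545, 666 and 479 CPM in LT-HSC and 213, 156, 256 and 161 CPM in CMP/GMP (log2 1.61, SE 0.247, adjusted p = 0.00128). Klf2 (chr8:72319062-72321654), a Krüppel-like factor, was at 52.5, 409, 62.5 and 47.6 CPM against 14.9 ± 7.55 CPM (log2 3.26, SE 0.769, adjusted p = 0.0236, kept in 21 of 25 alternatives). Cdk6, the G1 kinase held low in resting stem cells, was chosen after its values were seen. It was at 690 ± 258 CPM in LT-HSC and 1320 ± 64.7 CPM in CMP/GMP and was not called (log2 -0.94, adjusted p = 0.184).

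Immediate early genes respond within minutes to signals and to cell handling. Of 35 immediate early and NF-kB genes 6 were higher, 3 lower and 26 did not pass, with a median of 0.64. Nr4a1 (chr15:101253902-101274795), an orphan nuclear receptor linked to stem cell quiescence, was at 3148, 1839, 1574 and 1927 CPM in LT-HSC and 281, 347, 133 and 82.6 CPM in CMP/GMP (log2 3.33, SE 0.498, adjusted p = 0.00119). Egr1, a zinc finger factor with a like role, was at 1600, 2023, 969 and 1744 CPM against 336, 358, 125 and 220 CPM (log2 2.61, SE 0.386, adjusted p = 0.00112). Klf4 (chr4:55527137-55532475), also a factor of monocytes, was at 40.8, 168, 29.6 and 32.2 CPM against 7.98, 8.38, 1.45 and 4.62 CPM (log2 3.59, SE 0.703, adjusted p = 0.00728). Jun, chosen after its values were seen, was called in 13 of 25 alternatives (log2 1.69, SE 0.450, adjusted p = 0.0405). Ccl3 (chr11:83647843-83649378) and Ccl4 (chr11:83648624-83664683), chemokines whose annotated loci overlap, fell by 2.68 (SE 0.562, adjusted p = 0.0114) and by 2.42 (SE 0.577, adjusted p = 0.0247, kept in 23 of 25) on the log2 scale. Nfkbia, the NF-kB inhibitor, fell by 1.30 with groups that overlapped (SE 0.358, adjusted p = 0.0457, kept in 10 of 25). The part of cell handling in these differences was not tested.

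Primary granule genes were lower in stem cells where called. Of 16 tested primary granule genes of 19 listed, 9 were lower in LT-HSC and 0 higher, against 2.12% of all genes called lower, and 13 of the 16 had groups that did not overlap, against 9.49% of all genes. Their median was -4.06. Without LT-HSC wild-type library 1, 13 of the 16 were called, with the 8 knockout libraries alone 10, and without LT-HSC knockout library 2 only 8. The summed level of the listed genes ran from 2913 to 3410 CPM in knockout LT-HSC and from 15170 to 30905 CPM in knockout CMP/GMP. The list also holds genes other than granule proteases, among them Igsf6 and Nkg7. Neither the count of falls nor the summed level therefore describes the proteases alone.

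Ctsg (chr14:56099885-56102574), the gene of cathepsin G, was at 0.731, 0.820, 6.48 and 0.989 CPM in LT-HSC and 1837, 713, 1851 and 2574 CPM in CMP/GMP (log2 -9.58, SE 2.22, adjusted p = 0.0217, kept in 22 of 25 alternatives). It was near absent from every stem cell library. Prtn3, proteinase 3, chosen after its values were seen, was instead well expressed in stem cells, at 373, 296, 316 and 349 CPM, and at 2301, 1057, 1541 and 2029 CPM in progenitors (log2 -2.38, SE 0.365, adjusted p = 0.00130). Of 3 neighbouring proteases, Prss57 (chr10:79781474-79794684), Prtn3 and Elane, Prss57 was at 13.7, 0, 1.59 and 11.1 CPM against 156, 74.6, 145 and 124 CPM (log2 -4.24, SE 0.897, adjusted p = 0.0121, kept in 24 of 25), in a locus that overlaps Fstl3. Igsf6 (chr7:121064067-121074581), an immunoglobulin-like receptor of myeloid cells that lies within Mettl9, fell by 6.27 (SE 1.47, adjusted p = 0.0226, kept in 23 of 25). Calr, calreticulin of the endoplasmic reticulum, where granule proteins are folded, was at 657, 433, 601 and 515 CPM against 2067, 1599, 1668 and 1495 CPM (log2 -1.63, SE 0.249, adjusted p = 0.00128). Plac8 was at 130 ± 88.1 CPM against 1907 ± 443 CPM (log2 -3.88, SE 0.934, adjusted p = 0.0261, kept in 20 of 25). Calr and Plac8 were chosen after their values were seen. Of the secondary and tertiary granule genes, made later in neutrophil maturation, 5 of 16 passed the filter, and Lcn2, lipocalin 2, was the only one called. It had 0 reads in LT-HSC and 8.93 ± 2.64 CPM in CMP/GMP, at least 359-fold lower against a floor of 3 reads over the group, and was kept in 16 of 25 alternatives.

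Among 17 myeloid transcription factors 2 were higher in LT-HSC (Id1 and Klf4) and 1 was lower (Irf8). Irf8 (chr8:120736358-120756694), the factor of monocyte and dendritic cell fate, was at 9.36, 13.8, 7.75 and 4.71 CPM in LT-HSC and 190, 207, 682 and 520 CPM in CMP/GMP (log2 -5.49, SE 0.979, adjusted p = 0.00363). Id1 (chr2:152736251-152737410), an inhibitor of E proteins, was at 81.1, 70.4, 79.1 and 37.7 CPM against 13.6, 12.1, 5.52 and 0.0633 CPM (log2 3.1, SE 0.779, adjusted p = 0.0310, kept in 19 of 25). The master factors Spi1 (PU.1) and Cebpa, read after their values were seen, were not called. Spi1 was at 144, 37.5, 177 and 52.8 CPM in LT-HSC and 344, 211, 177 and 425 CPM in CMP/GMP (log2 -1.49, SE 0.575, adjusted p = 0.133). Cebpa was at 0.0562, 28.5, 1.53 and 0.0521 CPM against 33.9, 29.1, 22.2 and 40.7 CPM (log2 -2.07, SE 1.76, adjusted p = 0.544), with LT-HSC library 2 alone at the progenitor level. Without that library its fold was -5.86 (adjusted p = 0.137), and without both libraries that stand apart -5.87 (adjusted p = 0.0353).

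Of 19 monocyte genes 4 were lower (among them Irf8, Fcer1g and Emb) and 1 higher (Klf4), with a median of -3.05. Emb (chr13:117220573-117274415), the gene of embigin, a transmembrane glycoprotein, was at 99.5, 99.8, 96.9 and 67.6 CPM in LT-HSC and 709, 424, 684 and 638 CPM in CMP/GMP (log2 -2.76, SE 0.260, adjusted p = 5.04e-05). Fcer1g (chr1:171229572-171234349), the signalling chain of Fc receptors, was at 15.5 ± 6.48 CPM against 154 ± 93.8 CPM (log2 -3.30, SE 0.761, adjusted p = 0.0207, kept in 22 of 25). The count of falls was 7 without LT-HSC wild-type library 1 and 14 without both libraries that stand apart. Of 19 CSF, Fc and chemokine receptors 2 were lower, Csf2rb2 (log2 -5.52, SE 1.27, adjusted p = 0.0205, kept in 22 of 25), a chain of the IL-3 receptor and a near copy of Csf2rb, and Fcgr3, and 7 were lower without LT-HSC wild-type library 1. Fcgr3 (chr1:171051169-171065915), an IgG receptor, was at 0.112, 0, 0 and 0 CPM in LT-HSC and 65.9, 4.97, 46.7 and 50.4 CPM in CMP/GMP (kept in 16 of 25). Csf1r, the M-CSF receptor, chosen after its values were seen, was at 3.59 ± 5.23 CPM against 104 ± 73.7 CPM and was not called (log2 -4.88, SE 1.96, adjusted p = 0.145).

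Of 10 tested of 17 listed, 3 basophil, mast cell and eosinophil genes were lower in LT-HSC and 0 higher, and 0 were called without LT-HSC knockout library 2. Mcpt8 (chr14:56082163-56085499), a basophil protease with close copies beside it, was at 0.112, 0, 0.0636 and 0.0521 CPM in LT-HSC and 148, 11.8, 99.0 and 110 CPM in CMP/GMP (log2 -10.44, SE 2.54, adjusted p = 0.0273, kept in 19 of 25). Ms4a2, a chain of the IgE receptor, was at 0.787 ± 1.57 CPM against 105 ± 54.4 CPM (log2 -7.01, SE 1.86, adjusted p = 0.0403, kept in 13 of 25). Cpa3, mast cell carboxypeptidase, was at 6.91, 2.81, 0 and 9.74 CPM against 299, 74.4, 72.7 and 75.7 CPM (log2 -4.74, SE 1.22, adjusted p = 0.0357, kept in 12 of 25). Hdc (chr2:126593659-126624025), histidine decarboxylase, which makes histamine, stands outside that list and was among the largest falls, at 0.0843, 0.117, 0.191 and 0.0521 CPM against 167, 107, 189 and 128 CPM (log2 -10.37, SE 1.28, adjusted p = 0.000309).

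Megakaryocyte and erythroid genes did not separate the populations as groups. Of 18 megakaryocyte genes 2 were higher (among them Mmrn1) and 0 lower, with a median of 0.40, beside 1.64 in the wild type and 0.58 there without LT-HSC wild-type library 1. Mmrn1 (chr6:60944317-60989378), multimerin 1, was at 280, 177, 167 and 156 CPM in LT-HSC and 14.9, 17.5, 21.4 and 7.41 CPM in CMP/GMP (log2 3.67, SE 0.458, adjusted p = 0.000309). Pf4, platelet factor 4, chosen after its values were seen, was at 95.3, 78.3, 81.6 and 238 CPM in LT-HSC and 526, 306, 647 and 568 CPM in CMP/GMP and was not called (log2 -2.05, SE 0.754, adjusted p = 0.119). Of 23 erythroid genes 2 were higher and 0 lower, with a median of -0.52. They were Car2 (chr3:14886269-14900770), a carbonic anhydrase, at 1838 ± 355 CPM against 722 ± 134 CPM (log2 1.35, SE 0.339, adjusted p = 0.0310, kept in 18 of 25), and Hbb-bt, a beta globin with a near copy, whose groups overlapped (log2 3.02, SE 0.763, adjusted p = 0.0321, kept in 16 of 25). Of 15 tested lymphoid priming genes 2 were lower, Flt3 and Satb1, 0 were higher and 13 did not pass. As a group they did not separate the populations either. Fold changes were positive for 7 of the 15, with a median of -0.21, beside 0.43 in the wild type. Satb1 (chr17:51736187-51833290), a chromatin organiser of lymphoid specification, was at 0.337, 0.703, 0.0636 and 0.286 CPM in LT-HSC and 27.6, 19.1, 22.6 and 48.8 CPM in CMP/GMP (log2 -6.44, SE 0.792, adjusted p = 0.000309). Dntt, the terminal transferase, chosen after its values were seen, was not called (log2 -3.68, SE 1.21, adjusted p = 0.0860).

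Markers of cells that neither sort should hold were few. Of 12 B cell genes counted 3 had 0 reads in all 8 libraries (among them Cd22 and Ms4a1) and 2 were tested, Cd79b (34.4 ± 22.3 and 59.3 ± 14.9 CPM, log2 -0.78) and Vpreb1 (1.32 ± 1.66 and 2.61 ± 1.59 CPM, log2 -0.98), of which 0 were called. The summed level of the B cell list was 3.75 to 55.2 CPM in LT-HSC and 43.6 to 78.3 CPM in CMP/GMP. Of 15 T and NK cell genes Cd3e, Cd3g, Cd8b1 and Gzma had 0 reads throughout, and Klrb1c rose (log2 4.01, SE 1.07, adjusted p = 0.0403, kept in 12 of 25) while Nkg7, which also stands in the granule list, fell (log2 -2.15, SE 0.359, adjusted p = 0.00246), with summed levels of 79.2 to 194 and 511 to 648 CPM. Of 14 resident macrophage genes Siglec1 had 0 reads, 8 were tested and 0 were called. The most abundant were Cd68, at 29.9 ± 31.8 and 56.1 ± 14.9 CPM, and Cd163, at 12.6 ± 9.43 and 13.9 ± 10.2 CPM, with summed levels of 51.9 to 92.0 CPM in LT-HSC and 72.2 to 119 CPM in CMP/GMP. Of 15 stromal and endothelial genes Bglap, Cdh5, Col3a1, Dcn and Lum had 0 reads, 8 were tested and 0 were called, with summed levels of 80.6 to 116 CPM and 93.9 to 141 CPM. The most abundant were Pecam1, at 44.0 ± 14.2 and 97.1 ± 16.3 CPM, which stem cells also express, and Cxcl12, at 0.0562, 58.0, 0 and 0 CPM in LT-HSC.

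Some genes of replication and energy metabolism were lower in stem cells, while most did not pass. Of 34 DNA replication genes 6 were lower and 0 higher, with a median of -0.75, and 17 were lower in the wild type at a median of -1.22. The count of falls was 4 without LT-HSC knockout library 2 and 10 without both libraries that stand apart. Of all genes tested 2.12% were called lower in the knockout and 3.31% in the wild type. Rrm2 (chr12:24708254-24714146), a subunit of ribonucleotide reductase, was at 69.5, 15.2, 54.6 and 61.4 CPM in LT-HSC and 169, 160, 168 and 211 CPM in CMP/GMP (log2 -1.82, SE 0.353, adjusted p = 0.00691). Mcm6 (chr1:128331575-128359705), of the replicative helicase, was at 364, 197, 376 and 615 CPM against 861, 880, 876 and 906 CPM (log2 -1.18, SE 0.262, adjusted p = 0.0166, kept in 24 of 25). Rrm1 (log2 -0.93, SE 0.206, adjusted p = 0.0168, kept in 23 of 25) and Dut, the dUTPase (log2 -0.91, SE 0.222, adjusted p = 0.0268, kept in 18 of 25), were lower too. Mitotic genes showed 1 fall in 30, Cks2 (log2 -1.13, SE 0.307, adjusted p = 0.0443, kept in 12 of 25), a subunit of cyclin-dependent kinases, at a median of -0.29. Mki67, the proliferation antigen Ki-67, chosen after its values were seen, was at 172, 373, 157 and 147 CPM in LT-HSC and 135, 146, 108 and 171 CPM in CMP/GMP, so the groups overlapped and it was not called (log2 0.60, adjusted p = 0.428).

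All 32 respiratory chain genes had a negative fold change. Of these 9 were called lower and 0 higher, against 2.12% of all genes called lower. For 26 of the 32 the groups did not overlap, against 9.49% of all genes. Their median was -0.79, beside -0.66 in the wild type, and 7 were called without LT-HSC knockout library 2, 16 without LT-HSC wild-type library 1. The summed level ran from 6362 to 9676 CPM in knockout LT-HSC, lowest in library 2, and from 13745 to 16045 CPM in knockout CMP/GMP. Cycs (chr6:50562563-50566569), cytochrome c, was at 128, 145, 110 and 138 CPM in LT-HSC and 417, 333, 259 and 356 CPM in CMP/GMP (log2 -1.39, SE 0.260, adjusted p = 0.00537). Atp5b, the catalytic beta subunit of ATP synthase, chosen after its values were seen, was at 1616, 640, 1291 and 1516 CPM against 2728, 2590, 2450 and 2390 CPM (log2 -1.0, SE 0.255, adjusted p = 0.0327, kept in 18 of 25). Sdhd, of complex II, fell by 1.25 (SE 0.343, adjusted p = 0.0453, kept in 11 of 25) on the log2 scale. The complex IV associated subunit Ndufa4 fell by 1.10 (SE 0.277, adjusted p = 0.0310, kept in 19), and the complex I subunit Ndufa9 by 1.08 (SE 0.285, adjusted p = 0.0389, kept in 14).

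Of 22 glycolysis genes 4 were lower and 1 higher, against 2.12% and 2.53% of all genes. Hk3 (chr13:55005985-55021475), the myeloid hexokinase, was at 13.2, 2.69, 46.2 and 16.4 CPM in LT-HSC and 118, 105, 291 and 194 CPM in CMP/GMP (log2 -3.17, SE 0.706, adjusted p = 0.0168). Gpi1 (log2 -0.96, SE 0.204, adjusted p = 0.0126), Pgk1 (log2 -0.86, SE 0.181, adjusted p = 0.0114) and Pgam1 (log2 -2.35, SE 0.558, adjusted p = 0.0244, kept in 20 of 25), enzymes of the common pathway, were lower. The neuronal-type glucose transporter Slc2a3 was higher (log2 1.89, SE 0.419, adjusted p = 0.0166, kept in 21 of 25). Ribosome biogenesis showed 1 fall in 24 genes, Dkc1 (log2 -0.78, SE 0.169, adjusted p = 0.0149, kept in 21 of 25), the pseudouridine synthase dyskerin.

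**Figure D3:**
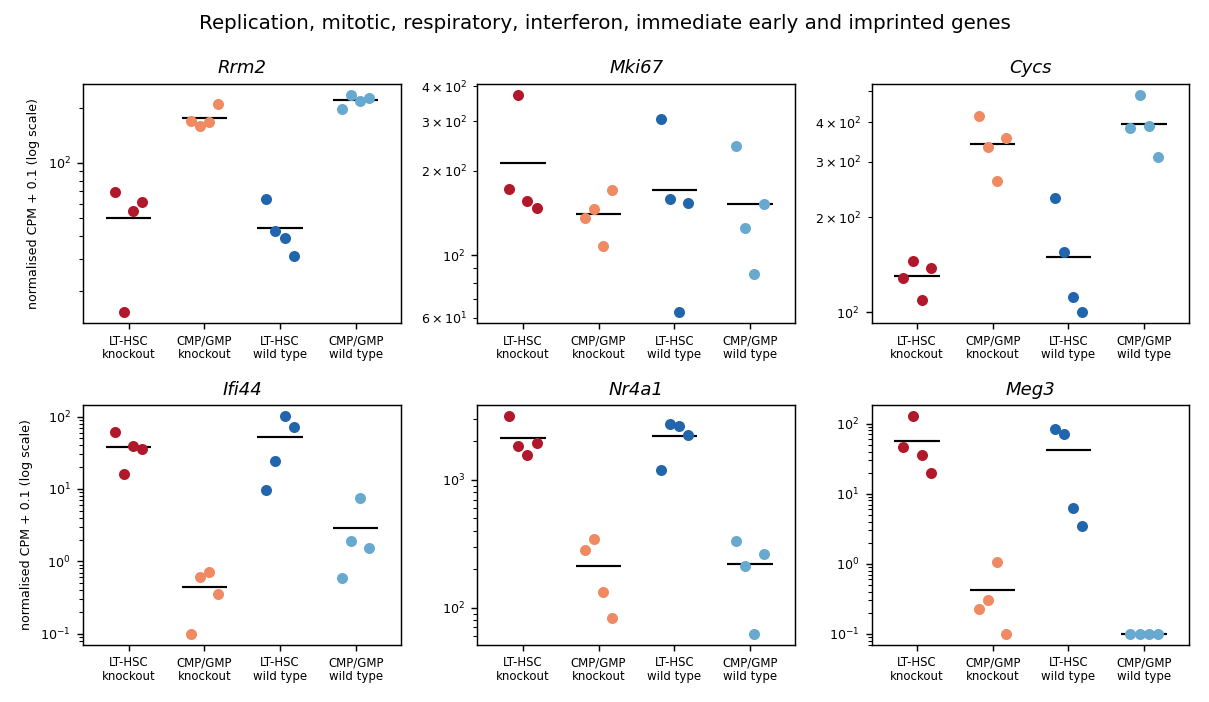
Normalised CPM of Rrm2, Mki67, Cycs, Ifi44, Nr4a1 and Meg3 in each library, on a log axis after adding 0.1 CPM; points are libraries and lines are group means. Rrm2 and Cycs are lower and Ifi44, Nr4a1 and Meg3 higher in LT-HSC of either genotype, while the Mki67 groups overlap.

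The interferon-stimulated genes that were called were all higher in stem cells, 10.6% of those tested against 2.53% of all genes called higher. Of 47 tested of 51 listed, 42 had a positive fold change, 5 were called higher (Ifi44, Samd9l, Trim30a, Ifih1 and Ifitm3, the last kept in 18 of 25 alternatives) and 0 lower, with a median of 0.92, beside 0.13 over all genes and 0.83 for the list in the wild type. The summed level ran from 2746 to 3234 CPM in knockout LT-HSC and from 1540 to 1769 CPM in knockout CMP/GMP. The count was 1 without LT-HSC knockout library 2, 1 with the 8 knockout libraries alone, 2 under the replicate block, 8 without LT-HSC wild-type library 1 and 13 without both libraries that stand apart. Ifi44 (chr3:151730922-151749910) was at 60.6, 16.0, 38.8 and 35.3 CPM in LT-HSC and 0, 0.515, 0.623 and 0.253 CPM in CMP/GMP (log2 6.73, SE 1.14, adjusted p = 0.00260). Samd9l (chr6:3372257-3399571), a growth-restraining interferon-induced gene, was at 37.0, 132, 25.3 and 32.3 CPM against 13, 6.32, 14.5 and 7.03 CPM (log2 2.47, SE 0.580, adjusted p = 0.0229, kept in 19 of 25). Ifih1, the double-stranded RNA sensor MDA5, rose by 1.55 (SE 0.419, adjusted p = 0.0427) and was called in 6 of 25 alternatives. Trim30a (log2 1.55, SE 0.416, adjusted p = 0.0411, called in 9 of 25) overlapped between the groups and has near copies.

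Of 20 genes of cytosolic nucleic acid sensing 2 were higher, Ifih1 and Ifi203 (log2 1.70, SE 0.410, adjusted p = 0.0261, kept in 19 of 25), a member of a family of near copies whose groups overlapped. The count of rises was 0 without LT-HSC knockout library 2. Rnaseh2b, a subunit of the nuclease that removes ribonucleotides from DNA, was lower (log2 -1.38, SE 0.342, adjusted p = 0.0293, kept in 19 of 25). Among 22 MHC and antigen processing genes 1 was higher, the class I gene H2-Q7 (409 ± 89.1 and 166 ± 44.8 CPM, log2 1.30, SE 0.303, adjusted p = 0.0221, kept in 22 of 25), which has near copies, and 1 lower, the immunoproteasome subunit Psmb8 (log2 -0.87, SE 0.233, adjusted p = 0.0404, kept in 13 of 25). Without both libraries that stand apart 4 were higher. Of class II, Cd74 and H2-Eb1 were chosen after their values were seen. Cd74, the invariant chain, was at 111, 86.0, 31.8 and 84.4 CPM in LT-HSC and 79.0, 0.515, 1.02 and 0.538 CPM in CMP/GMP, where library 1 alone reached the stem cell level. H2-Eb1 was at 56.8, 77.2, 30.4 and 57.3 CPM against 29.7, 1.26, 0.623 and 0.380 CPM, again with CMP/GMP library 1 apart. The knockout differences of 1.95 (adjusted p = 0.390) and 2.79 (adjusted p = 0.139) were not called, those of the wild type were 5.53 (adjusted p = 0.0291) and 7.33 (adjusted p = 0.00366), and the test between them gave adjusted p-values of 0.865 and 0.703.

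Few genes of the methylation and silencing machinery were called. The shares were 11.8% for DNA methylation, 3.85% for transposable element silencing, 4.35% for polycomb and 5.71% for disease driver genes, against 4.64% of all genes. Of 17 writers, erasers and readers of DNA methylation Zbtb4, a reader of methylated DNA, was higher (24.0 ± 15.7 and 3.6 ± 1.14 CPM, log2 2.74, SE 0.674, adjusted p = 0.0291, kept in 17 of 25). Idh2, the mitochondrial isocitrate dehydrogenase that supplies the cofactor of Tet enzymes, was lower (306 ± 132 and 778 ± 83.6 CPM, log2 -1.34, SE 0.286, adjusted p = 0.0124, kept in 24 of 25). The other methyltransferases, chosen after their values were seen, were not called. Dnmt1, the maintenance enzyme, was at 186, 110, 133 and 214 CPM in LT-HSC and 172, 239, 229 and 174 CPM in CMP/GMP (log2 -0.34, adjusted p = 0.430). Dnmt3b, the other de novo enzyme, was at 48.2, 203, 69.2 and 109 CPM against 36.1, 56.7, 48.9 and 46.1 CPM (log2 1.19, SE 0.412, adjusted p = 0.0988). Of 26 genes of transposable element silencing Hells, a chromatin remodeller needed for methylation of repeats, was lower (log2 -1.13, SE 0.317, adjusted p = 0.0485, kept in 6 of 25), and of 23 polycomb genes Cbx6 was higher (88.1 ± 39.0 and 22.4 ± 7.71 CPM, log2 1.97, SE 0.412, adjusted p = 0.0112). Of 35 driver genes of haematopoietic disease Flt3 and Idh2 were lower and 0 were higher with edgeR, against 7 higher with DESeq2 and 5 with edgeR without LT-HSC wild-type library 1.

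The genes with the largest fold changes were silent in the other population. Of the 372 rises 54 had 0 reads in all 4 knockout CMP/GMP libraries, and of the 312 falls 35 had 0 reads in all 4 knockout LT-HSC libraries. For these a fold change is a lower bound, taken against a floor of 3 reads over the group, which like all bounds here covers counting error only. On the stem cell side Mpdz, a scaffold of tight junctions, was at 1.55, 32.4, 14.6 and 38.4 CPM and at least 989-fold higher, and Myo5c, an unconventional myosin, was at 9.05, 27.6, 13.3 and 29.9 CPM and at least 917-fold higher. Wwtr1, the Hippo pathway coactivator TAZ, was at 24.1, 12.1, 20.2 and 7.92 CPM and at least 779-fold higher. All 4 stem cell libraries thus carried these transcripts. The bounds were 803 for Eps8l2, 788 for Tmem47, 691 for Hspb8, 655 for Insrr, 587 for Clip3, 533 for Ror2, 458 for Rhbdf1 and 395 for Yes1 (kept in 24 of 25 alternatives). For Neo1, a netrin receptor of dormant stem cells, the bound was 375-fold (23 of 24 alternatives), with LT-HSC library 3 at 0.0318 CPM. Nov, a matricellular protein, was at 0.0562, 37.4, 15.2 and 0.885 CPM and was kept in 11 of 24.

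On the progenitor side Scin (chr12:40059769-40134228), the actin-severing protein scinderin, was at 22.7, 11.4, 39.4 and 16.4 CPM and at least 972-fold lower in LT-HSC. Mst1r, the receptor of macrophage-stimulating protein, was at 1.72, 36.1, 17.3 and 27.0 CPM (at least 843-fold, kept in 12 of 25). Papss2, which makes the sulfate donor, was at 14.2, 0.801, 23.5 and 24.1 CPM (at least 655-fold, kept in 18 of 25). Cldn15, a claudin, Cd300lb, an activating receptor of myeloid cells, and Gna14, a G protein subunit, were at least 628-fold, 611-fold and 430-fold lower. Alox5, the 5-lipoxygenase of leukotriene synthesis, had 2 reads in LT-HSC against 47.9, 25.1, 19.6 and 21.5 CPM in CMP/GMP, a ratio of 1690 with an exact counting interval of 468 to 13953. Trem3 also had 2 reads, against 46.8, 12.1, 10.7 and 26.2 CPM, a ratio of 1372 (380 to 11329, kept in 19 of 25).

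The knockout difference was then set beside that of the wild type, whose fold changes come from other libraries. The calls of both contrasts share the estimate of spread over all 16 libraries, so the lists of calls are not independent. Of the 684 genes called in the knockout 430 were also called in the wild type in the same direction and 0 in the opposite one. The 430 are 62.9% of the knockout list and 38.8% of the wild-type list, and 7.52% of all genes were called in the wild type. With CMP/GMP wild-type libraries 2 and 4 summed, the lists held 460 and 505 genes. A fold change of the same sign was found in the wild type for 672 of the 684 (98.2%), and for 74.1% of all genes. The median absolute log2 of the 684 was 2.26, and their median in the wild type, taken in the knockout's direction, was 1.80. The first of these is raised by the choice of the genes on that contrast. Across all genes the fold changes of both contrasts had a Pearson r of 0.499 and a Spearman rho of 0.561, as a description over genes, which are not independent.

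**Figure D4:**
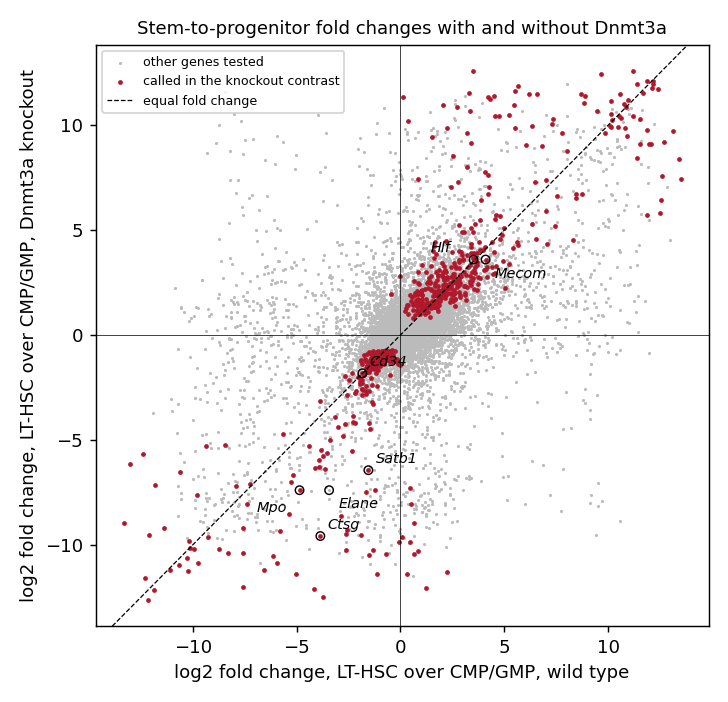
Log2 fold change of LT-HSC over CMP/GMP in the wild type (horizontal) and the knockout (vertical) for all 14727 tested genes, with the genes called in the knockout coloured. The coloured genes lie almost all in the quadrants of equal sign (672 of 684); points far out are genes with 0 reads in a population, drawn at their fitted value.

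The direct test of the difference between knockout and wild type called 0 genes with edgeR, where the lowest adjusted p was 0.401. DESeq2 called 261, limma-voom 1, and edgeR without LT-HSC wild-type library 1 called 1. That gene, Prss50, a testis serine protease also known as TSP50, had 0 reads in knockout LT-HSC and 0.0989, 28.0, 31.3 and 11.2 CPM in wild-type LT-HSC, with 1.98, 11.9, 23.8 and 23.2 CPM in knockout CMP/GMP. Satb1 shared the lowest adjusted p of 0.401, with 17.5, 6.25, 4.43 and 17 CPM in wild-type LT-HSC, all above the 4 knockout LT-HSC libraries. For both genes every wild-type LT-HSC library lay above every knockout one, for Prss50 only by the 0.0989 CPM of wild-type library 1. Both were picked for this difference, so the lack of overlap adds no support. Among all genes the wild-type LT-HSC libraries all lay above in 0.794% and all below in 0.801%. Recovery of a simulated log2 difference of 2 between the contrasts was 4.04%, again with few genes changed. Most differences of that size were thus missed in the simulation and can have been missed here. For the stem cell markers the difference of the contrasts was 0.08 in Hlf and -0.50 in Mecom. For the granule genes it rested on LT-HSC wild-type library 1, where Mpo was at 1369 CPM against at most 3.66 CPM in the other 3, and Elane at 596 CPM against at most 0.439 CPM. The differences of -2.54 for Mpo, -3.96 for Elane and -5.73 for Ctsg became 4.79, 5.19 and 3.87 without that library, and none was called. Likewise the wild-type median of the primary granule genes was -2.54 with it and -4.07 without it.

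Reads of transposable elements (TE), the repeats whose silencing needs DNA methylation, were more frequent in stem cell libraries. Per 100 gene reads they were at 3.81, 12.3, 8.16 and 5.25 in knockout LT-HSC and at 2.57, 3.0, 4.08 and 3.19 in knockout CMP/GMP, so the groups overlapped by 1 library. The means were 7.39 ± 3.76 and 3.21 ± 0.634 (SD, n = 4), with p = 0.0571 by a two-sided exact permutation test, in which 4 against 4 libraries can reach 0.0286 at the lowest. LINE reads were at 1.40 ± 0.647 against 0.579 ± 0.106 without overlap (exact permutation p = 0.0286, adjusted over 5 measures 0.0571). In the wild type the means were 7.21 ± 3.59 and 3.73 ± 0.269, again with 1 LT-HSC library, library 1, far above the rest at 12.4.

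**Figure D5:**
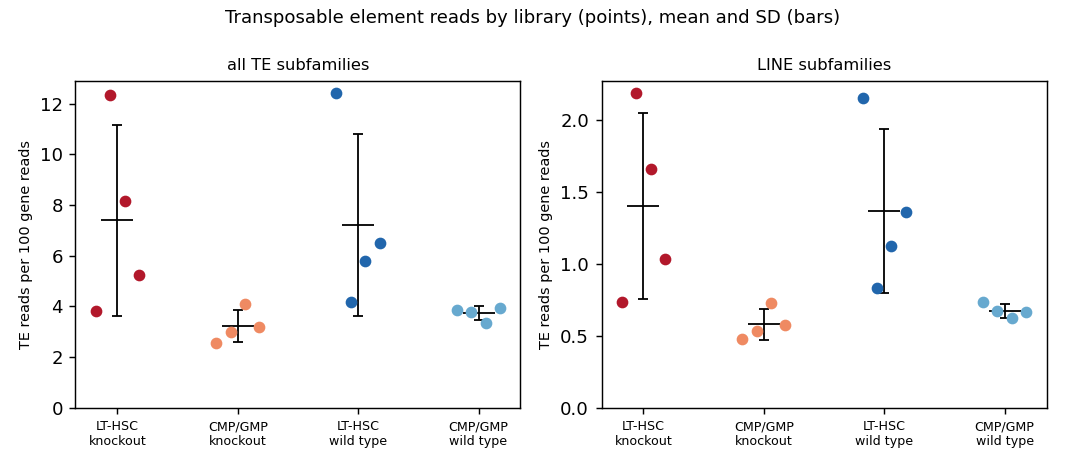
Reads of all transposable element subfamilies (left) and of LINE subfamilies (right) per 100 gene reads, with points for libraries and bars for mean and SD of 4 libraries. LT-HSC libraries are higher and more spread than CMP/GMP libraries in both genotypes, with knockout library 2 and wild-type library 1 highest.

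Of 970 tested subfamilies of 1146, 303 were higher in knockout LT-HSC (31.2%) and 2 lower (0.206%), when counts were scaled to gene reads. The rises were spread over all classes, with 93 of 153 LINE, 28 of 36 SINE, 132 of 565 LTR and 43 of 183 DNA transposon subfamilies, and their medians lay between 0.99 and 1.23. Among the families 85 of 131 L1 and 60 of 257 ERVK subfamilies were higher. Scaled to TE reads instead, 0 were higher and 1 lower, with a median of 0.00. The count was 1 without LT-HSC knockout library 2, and 0 without CMP/GMP knockout library 1, 2 or 4. It was 67 without the library labelled LT-HSC knockout 3 and 415 without LT-HSC knockout library 1. In the wild type 3 were higher (0.309%) and 1 lower (0.103%) at a median of 0.82, beside 1.06 in the knockout, and the test of the difference called 0, with 34 at an unadjusted p under 0.05 (DESeq2 also called 0). LT-HSC knockout library 2, with the highest TE share, had the fewest gene reads and the fewest genes detected of the 8 libraries, while among the CMP/GMP libraries the highest share was in the deepest, library 3. The part of depth in the rise was not tested.

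The DNA transposon relic MER121 was at 3.71, 41.4, 6.96 and 4.14 CPM in LT-HSC and 0.0958, 1.0, 0.956 and 1.30 CPM in CMP/GMP (log2 4.06, SE 0.894, adjusted p = 0.0152). The ERVK element RLTR13A was at 5.28, 20.6, 14.8 and 4.27 CPM against 1.5, 0.143, 1.33 and 1.61 CPM (log2 3.28, SE 0.729, adjusted p = 0.0152). The major satellite GSAT_MM of pericentromeric heterochromatin was at 2.78, 35.9, 45.2 and 34.5 CPM against 1.56, 3.66, 5.07 and 2.91 CPM (log2 3.16, SE 0.889, adjusted p = 0.0236), and at 122.6 and 318.9 CPM in wild-type LT-HSC libraries 3 and 4. Tigger8 (log2 3.20), Tigger14a (log2 3.07) and ETnERV2-int (log2 2.77) were highest in library 2, at 37.3, 31.6 and 26.8 CPM. All 6 calls were lost with TE library sizes and without LT-HSC knockout library 2 or CMP/GMP knockout library 1, 2 or 4. That of GSAT_MM was also lost without the library labelled LT-HSC knockout 3, and that of ETnERV2-int under the replicate block.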

How the data were processed

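RNA-seq libraries of sorted bone marrow cells were made from polyA RNA with a modified SMART-Seq2 protocol and a transposase tagmentation kit, per the labels' protocols. The deposited tables hold raw read counts, which the authors made per gene and per transposable element subfamily. The submitters' processing notes name Trim Galore 0.6.7, HISAT2, featureCounts 2.0.1, DESeq2 1.34.0 and the genome build mm10. The sources used here do not give the strand setting, the handling of reads with several matches, or the way transposable element reads were assigned, so reads of overlapping genes and of near copies cannot be told apart. Deposited gene columns that match no sample numbered 8 and were not used.

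The counts of 16 libraries, 4 in each of 4 groups, were fitted with edgeR 4.0.16 (quasi-likelihood test, TMM scaling, R 4.3.3) after a filter on low counts (filterByExpr, at least 10 reads, at least 15 in total), and p-values were adjusted over all genes by the Benjamini-Hochberg method with a threshold of 0.05. The contrasts were LT-HSC against CMP/GMP in the knockout, the same in the wild type, and their difference. Counts of transposable elements were scaled with the gene library sizes. Bounds and intervals use a floor of 3 reads over a group and a confidence of 95%, and cover counting error only. Gene coordinates and promoter windows are from RefSeq GRCm38.p6, to which 32501 symbols matched directly and 1015 through synonyms. The fit was tested on simulated data.

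Alternatives were DESeq2 1.42.0, limma-voom (limma 3.58.1) with quality weights, other size factors, no filter, a replicate block, the 8 knockout libraries alone, and each library left out. A term for sex, leaving out both libraries that stand apart, and summing CMP/GMP wild-type libraries 2 and 4, which were near identical yet differed beyond sampling noise, were chosen after seeing the data. The members and the 31 gene lists were chosen with earlier results of these data known. The text names Dnmt3a, Tmem173, Hlf, Mecom, Mpo and Elane, up to 12 rises and 12 falls with the largest fold changes among called genes whose mean reached 5 CPM, with groups that do not overlap and no predicted-gene name, up to 8 per direction of the difference of the contrasts, up to 4 called genes per list and direction, the 2 most abundant members of lists with none called, and up to 6 transposable element subfamilies per direction with at least 1000 reads. Some members of the lists are counted but not reported by name here. Other genes are marked as chosen after their values were seen.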

Additional observations from a re-analysis of the deposited data

Results flagged for a closer look

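Of 84 groups of 4 libraries, 11 held a library whose gap to the nearest other, divided by the range, was above Dixon's 95% critical value of 0.829. Chance alone flags about 1 in 20 such groups. LT-HSC knockout library 2 was high for 4 genes: Elane at 46.1 CPM (others 1.04 to 3.15), Fgd5 at 83.0 CPM (10.3 to 17.6), Klf4 at 168 CPM (29.6 to 40.8) and Cxcl12, a stromal chemokine, at 58.0 CPM (0 to 0.0562). The library labelled LT-HSC knockout 3 was high for Ctsg at 6.48 CPM (0.731 to 0.989). LT-HSC knockout library 4 was low for Emb at 67.6 CPM (96.9 to 99.8) and high for Pf4 at 238 CPM (78.3 to 95.3), and library 1 was high for Mmrn1 at 280 CPM (156 to 177). Among CMP/GMP knockout libraries, Prdm16 was high in library 3 at 10.1 CPM (3.45 to 4.24), Cpa3 in library 1 at 299 CPM (72.7 to 75.7) and Cxcl12 in library 2 at 2.54 CPM (0 to 0.351).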

How the results depend on the processing

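The count of genes called in the knockout was 684 in the fit reported, 1978 with DESeq2, 1576 with limma-voom, 445 with the 8 knockout libraries alone, 1181 without both libraries that stand apart, and 270 to 1082 with 1 library left out. With the near identical CMP/GMP wild-type libraries 2 and 4 summed, which share the estimate of spread, the knockout count was 460. The wild-type count of 1108 became 2338, 3454 and 2257 under DESeq2, limma-voom and without both libraries, 505 with CMP/GMP wild-type libraries 2 and 4 summed, and 464 to 1664 with 1 library left out (1664 without LT-HSC knockout library 2, 702 without LT-HSC wild-type library 4, 464 and 525 without CMP/GMP wild-type library 2 and 4). The difference of the contrasts called 0 genes, against 261, 1 and 1 under the first 3 of these and 0 to 1 with 1 library left out. The 303 higher and 2 lower transposable element subfamilies became 0 higher with TE library sizes, 164 higher under the replicate block, 171 higher with the 8 knockout libraries alone and 0 to 415 higher with 1 library left out, and the difference of 4.18 TE reads per 100 gene reads became 2.53 to 5.37. Under the replicate block 457 genes were called in the knockout, 412 of them shared. Same-numbered libraries of the knockout deviated together with correlations of 0.12, 0.00, 0.07 and 0.04, and those of the wild type with 0.20, 0.095, 0.077 and 0.064. In the wild type each of the 4 numbers matched its own best, and in the knockout 2 of 4 did. Wild-type library 4 carried Xist in LT-HSC and Y-linked transcripts in CMP/GMP, so that match cannot be a shared animal. The numbers were not taken to pair the libraries. Fold changes reversed for Cd163 (0.28 without both libraries, and -0.47 to 0.47 with 1 library left out, positive without LT-HSC knockout library 2 or CMP/GMP knockout library 3) and Cxcl12 (-2.61 with limma-voom, -0.31 under the block, -5.09 without both, and -5.08 to 6.52 with 1 library left out, negative without LT-HSC knockout library 2), neither of them called. The difference of the contrasts reversed for Mpo (2.68 with limma-voom, 2.82 under the block, 3.99 without both, and -3.34 to 4.79 with 1 library left out), Elane (0.63 with limma-voom, 2.37 without both, -6.79 to 5.19), Ctsg (1.78, 1.26 and 4.11 in the order of Mpo, -7.14 to 3.87) and Cd74 (-4.08 to 1.30, positive without CMP/GMP knockout library 1). For Mpo, Elane and Ctsg the high end is without LT-HSC wild-type library 1, and the cause was not tested. Of the values of single genes under alternatives 3112 kept their call and direction, 481 lost their call, 45 gained one and 19 reversed. With 16.9 to 45.6 M gene reads per knockout library, genes of few reads were not detectable beyond the limits given beside them.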
